A study of Homo sapiens with 13 samples.

Results

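The genes described here are the solute carriers that MDA-MB-231 cells expressed. They were chosen by symbol (SLC, a number, a letter and a number) and by level: at least 1 RPKM (reads per kilobase of transcript, scaled to the size of the library) both in the DMSO ribosome footprint (RF) library of passage 3 at 2 h and in the DMSO mRNA library. The mitochondrial SLC25 family and the genes SLC7A11, SLC40A1 and SLC11A2 were left out. This gave 118 genes of 24875 symbols in the table, out of 296 symbols of that form. By the main substrate they are known for, 19 are amino acid carriers, 7 are sugar carriers, 18 are ion carriers, 21 are metal carriers and 53 carry other substrates, such as nucleotide sugars, nucleosides, vitamins and monocarboxylates. Although the genes were proposed as plasma membrane carriers, 40 of the 118 are known mainly from an intracellular membrane, among them most SLC35 carriers of the Golgi and endoplasmic reticulum, so that the name plasma membrane can hold for at most 78. They are called solute carriers below. Because the DMSO levels chose the genes, those levels are given as a description.

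Solute carriers are proteins with many membrane-spanning helices that let small molecules cross a membrane, either down their own gradient or coupled to a gradient of sodium, protons or another solute. Amino acid carriers such as the SLC7A5 and SLC3A2 pair supply leucine to the cell, and leucine in turn activates the kinase mTORC1. SLC2A1 (GLUT1) is the main glucose carrier of many tumor cells. Zinc enters the cytosol through SLC39 (ZIP) proteins and leaves it through SLC30 (ZnT) proteins. Silvestrol blocks eIF4A, the RNA helicase that unwinds 5′ untranslated regions (5′ UTRs) so that ribosomes can reach the start codon. INK128 inhibits the mTOR kinase, on which translation of mRNAs that begin with a run of pyrimidines depends most.

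The line MDA-MB-231 was derived from a human breast cancer and lacks estrogen receptor. RFs, the mRNA fragments that ribosomes protect from nuclease, were sequenced without treatment and after 1 h or 2 h with either DMSO or Silvestrol at 25 nM. For 2 h there were 2 cultures, one at passage 3 and one at passage 4, whereas all other libraries came from 1 culture each, including the 2 mRNA libraries at 2 h. In a separate experiment cells received DMSO or 200 nM INK128 for 2 h, with 1 RF and 1 total RNA library per treatment. Both experiments used the same cell line and no genetic change. The treatment field of 2 libraries goes against their titles: 1 h stands there for Silvestrol RFs of passage 3 at 2 h, and untreated for the mRNA with DMSO. The titles were followed, and the paper states that RFs were normalized to mRNA from identical biological samples. From the labels, whether the control mRNA came from DMSO-treated or untreated cells cannot be told apart here, which touches each mRNA and TE value below.

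The 9 libraries of the Silvestrol experiment held 2634213 (Silvestrol at 2 h, passage 4) to 49517456 (DMSO mRNA) counted reads, and the depth of the INK128 libraries is unknown because only FPKM values are used. The solute carriers had a median of 38.0 RF reads in the shallowest library, with 2 reads for SLC35E4 as the lowest. VIM, CD44 and AXL, markers of this mesenchymal line, were abundant, with VIM between 4789 and 7031 RF RPKM over the RF libraries. ESR1 had 0 reads in each library, and PGR and CDH1 stayed at or below 0.0419 and 0.108 RF RPKM. In these bulk libraries, each scaled to its own total, a loss shared by all genes is not seen, and fewer cells and less RNA per cell cannot be told apart.

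In DMSO at 2 h in passage 3 the RF levels of the solute carriers ran from 1.09 RPKM for SLC22A18 to 147 RPKM for SLC2A1, with a median of 6.05. The mRNA levels ran from 1.21 RPKM for SLC46A3 to 574 RPKM for SLC16A3 (MCT4, the lactate exporter). For 25 genes the RF level lay below 2 RPKM, close to the threshold of 1. The genes just inside it were SLC22A18 at 1.09, SLC22A4 at 1.12, SLC2A3 at 1.19 and SLC12A8 at 1.21 RF RPKM. Just outside it lay SLC35A4 at 0.933, SLC38A4 at 0.923 and SLC45A4 at 0.851 RF RPKM, and SLC2A13 with 0.833 RPKM of mRNA. SLC35A4 combined that RF level with 74.8 RPKM of mRNA. SLC16A1 (MCT1) had 4 RF reads and SLC19A1, the reduced folate carrier, had 0 reads in the table, so neither is among the genes described. SLC39A7, a zinc carrier of the endoplasmic reticulum, also had 0 reads in each library of that table but 89.6 RF FPKM with DMSO in the INK128 table, so that a 0 does not show that a gene was not expressed, and it is absent from the ZIP proteins below.

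Relative to their mRNA, the solute carriers carried few RFs in passage 3, and less so in passage 4. The median log2 ratio of RF to mRNA RPKM in passage 3 was -0.90, against 0.88 over the 10505 genes kept for testing, and the ratio lay below the median of all genes for 114 of 118. The exceptions were SLC31A1, SLC39A4, SLC30A7 and SLC30A9, all metal carriers. By class the median was 0.14 for metal carriers, -0.57 for amino acid carriers, -1.52 for ion carriers and -1.77 for sugar carriers. With the RFs of passage 4 over the same mRNA the median was 0.02 for solute carriers and 0.87 for all genes, and the metal carriers, at 0.87, equalled all genes. The passage 4 medians were 0.30 for amino acid, -0.80 for ion and -0.67 for sugar carriers. The rule used both levels that make up the passage 3 ratio, so the order is a description. In the DMSO libraries of the INK128 experiment, 42 of the 63 solute carriers kept there lay below the median of all genes, with a median log2 ratio of RF to total RNA FPKM of 3.58 against 3.88.

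The level of RFs also depended on the culture. In DMSO, passage 4 exceeded passage 3 for 110 of 116 solute carriers kept for testing, where 47.3% of all genes did, and the median log2 difference was 0.86 against -0.02. In Silvestrol it was 0.63 against 0.05, with passage 4 higher for 100 of 116, against 56.2% of all genes. The 33 SLC25 carriers of mitochondria that passed the same thresholds had a median of -0.09 in DMSO. Of 36 pumps, partners and regulators of solute carriers, 30 were higher in passage 4, with a median of 0.57. The median was 0.82 for amino acid, 1.13 for sugar, 0.84 for ion and 0.87 for metal carriers. There is 1 library for each culture and treatment, so the difference between the cultures has no test, and its cause was not tested. DMSO and untreated cells of passage 3 differed by less than 0.5 on the log2 scale for 114 of 118.

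**Figure D1:**
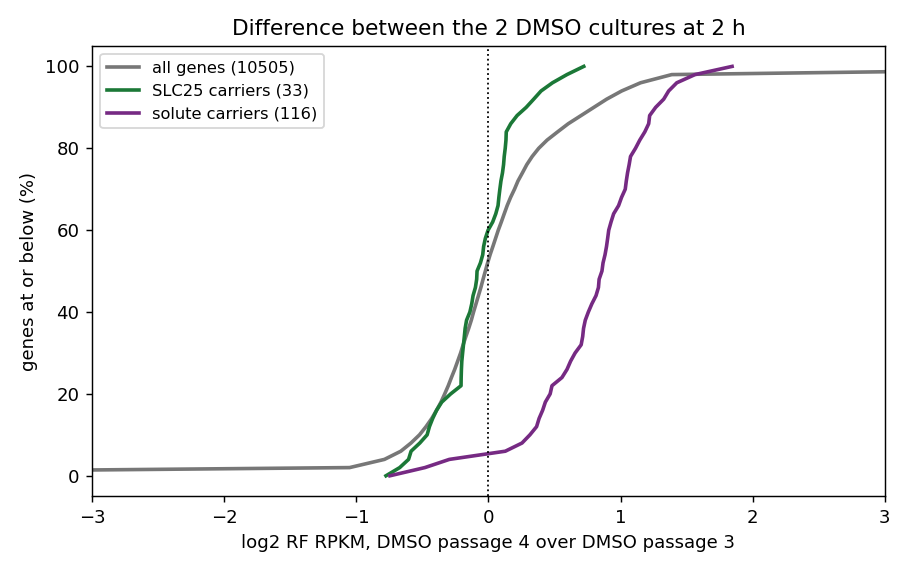
Cumulative share of genes (y axis, percent) by the log2 ratio of DMSO RF RPKM in passage 4 over passage 3 (x axis, shown from -3 to 3) for all genes, SLC25 carriers and the solute carriers. The curve of the solute carriers lies to the right, with a median of 0.86, while the other curves cross 50% close to 0.

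The RF counts of both cultures at 2 h were tested for a difference between Silvestrol and DMSO by the quasi-likelihood test of edgeR. Without a term for the culture, 2 of 116 solute carriers had fewer RFs (adjusted p under 0.05), against 7.76% of all genes, and 0 had more, against 2.23%. At an unadjusted p under 0.05, 18 (15.5%) had fewer and 2 (1.72%) had more, against 18.8% and 12.6% of all genes. With the passage as a block, 37 solute carriers (31.9%) had fewer RFs, against 28.1% of all genes, and 20 (17.2%) had more, against 25.0%. Of the 88 with at least 20 reads in each of these libraries, 28 had fewer RFs with the block and 18 had more, against 28.4% and 29.5% of all genes with as many reads. DESeq2 without the block called 7 fewer and 1 more, against 9.60% and 5.82%. The labels give the passage for both treatments, so the blocked calls are given beside the others and are named as such. All 37 genes with fewer RFs in the blocked test were lower in both cultures, and 19 of the 20 with more RFs were higher in both. The exception was SLC7A5. For 38 of 118 both Silvestrol RF levels lay below both DMSO levels, against 40.2% of all genes, and for 5 both lay above, against 20.5%. Those 5 were SLC4A7, SLC4A11, SLC29A3, SLC35E3 and SLC39A13.

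The genes that fell without the block were SLC41A1 and SLC4A2. SLC41A1 (chr1:205758223-205782326 in hg19, minus strand) moves magnesium across the plasma membrane. Its RFs stood at 7.84 RPKM with DMSO and 1.53 RPKM with Silvestrol in passage 3, and at 10.1 and 2.24 RPKM in passage 4. Both Silvestrol libraries lay far below both DMSO libraries, and at 1 h the pair was 8.27 and 2.09 RPKM. The log2 RF change at 2 h was -2.18 ± 0.31 (SE, adjusted p = 0.024), the lowest of the 116. Its mRNA hardly moved, at 15.9 RPKM with DMSO and 16.6 RPKM with Silvestrol. The relatives SLC41A2 and SLC41A3 had log2 RF changes of -0.45 and 0.22 and passed neither test.

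SLC4A2 (AE2, chr7:150756676-150773610 in hg19, plus strand) exchanges chloride for bicarbonate. In passage 3 DMSO gave 18.7 RF RPKM and Silvestrol 7.94, in passage 4 they gave 22.2 and 9.09, again without overlap between the treatments. The log2 RF change was -1.14 ± 0.16 (SE, adjusted p = 0.024), and the pair at 1 h was 20.4 and 10.9 RPKM. Here the mRNA was lower as well, at 86.2 and 64.8 RPKM. For both genes the call was lost when either Silvestrol library was left out, with adjusted p from 0.125 to 0.217, while the log2 changes stayed between -2.37 and -1.94 for SLC41A1 and between -1.20 and -1.11 for SLC4A2.

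**Figure D2:**
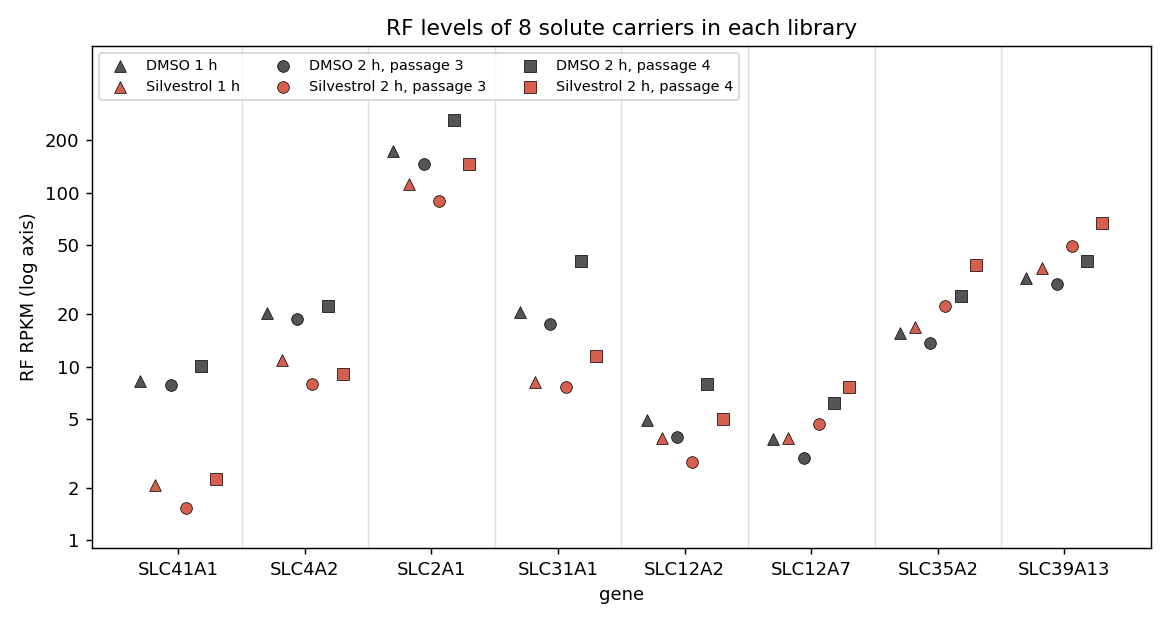
RF RPKM (y axis, log scale) of 8 solute carriers in 6 libraries, with DMSO in grey and Silvestrol in red, and the time and passage by symbol. Silvestrol lies below DMSO of the same culture and time for the 5 genes on the left, and above it at 2 h for the 3 on the right.

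Median log2 RF changes at 2 h differed little between the classes. Without the block the median was -0.32 for amino acid carriers, -0.33 for sugar carriers, -0.18 for ion carriers and -0.40 for metal carriers, against -0.25 for all 116 and -0.01 for all genes. With the block the same medians were -0.25, -0.19, -0.15 and -0.30, against -0.16 and 0.00. Within a culture, from RPKM, the median of the solute carriers was -0.20 in passage 3, where all genes had -0.17, and -0.52 in passage 4, where all genes had -0.15. The shift relative to all genes was thus present in passage 4 and nearly absent in passage 3. When the passage 4 DMSO library was left out the median of the solute carriers became 0.15. In the blocked test the share with fewer RFs was 31.6% of amino acid, 28.6% of sugar, 27.8% of ion and 42.9% of metal carriers, against 28.1% of all genes, and the share with more RFs was 10.5%, 0.00%, 27.8% and 9.52%, against 25.0%. The shares of amino acid, sugar and ion carriers with fewer RFs thus lay near the background. With 7 to 21 genes per class, no class was tested against another.

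**Figure D3:**
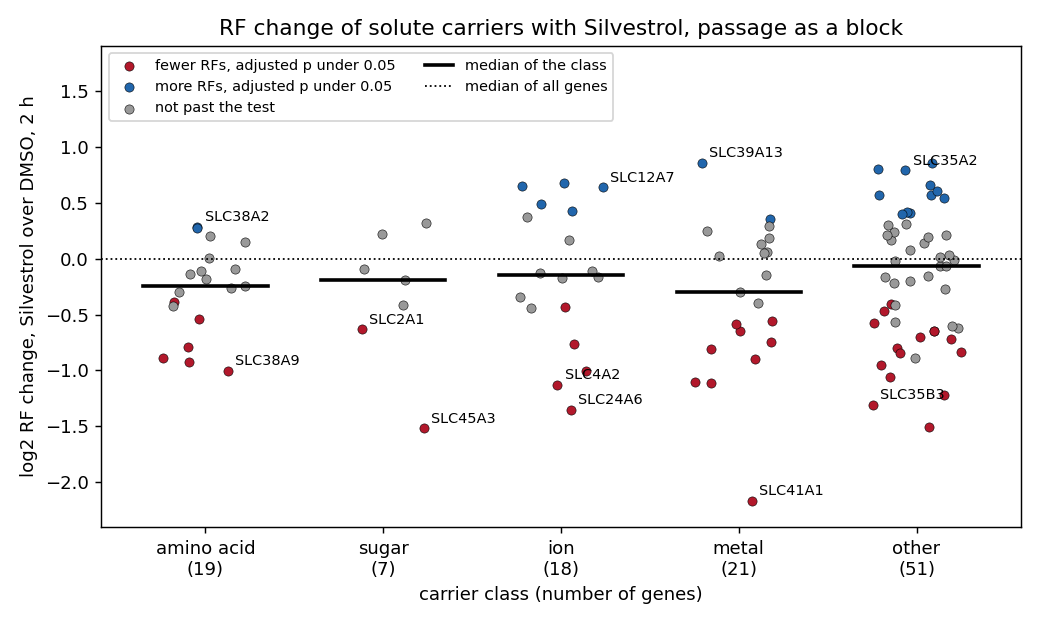
log2 RF change with Silvestrol at 2 h, from the edgeR fit with the passage as a block (y axis), for each solute carrier by class (x axis, number of genes in brackets). Black bars are class medians between -0.30 and -0.07, red and blue points passed the test, and genes with fewer and with more RFs occur in each class except sugar carriers, where 0 had more.

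From here on, calls are those of the fit with the passage as a block unless stated, and of the genes named in these paragraphs SLC41A1, SLC4A2 and the regulators WNK1, OXSR1 and SGK1 also passed edgeR's test without it. DESeq2 without the block called these as well, and further SLC24A6, SLC35B3, SLC37A4, SLC39A1 and SLC39A9 with fewer RFs and SLC39A13 with more. In the edgeR fit without the block, leaving out 1 library turned the sign of the change for SLC7A5, SLC20A1, SLC39A14, SLC46A1, SLC29A1 and SLC6A6. Genes named that a fixed rule did not list were chosen after their values were seen.

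Of 19 amino acid carriers, 6 (31.6%) had fewer RFs with the block, near the 28.1% of all genes, and 2 (10.5%) had more, against 25.0%. SLC1A5 (ASCT2), the main glutamine carrier of many tumor cells, had 64.7 RF RPKM with DMSO and 48.1 with Silvestrol in passage 3, against 97.3 and 63.3 in passage 4. The treatments did not overlap, but the Silvestrol level of passage 4 came close to the DMSO level of passage 3. The log2 change was -0.39 ± 0.11 (SE, adjusted p = 0.0010), and its mRNA moved by -0.29. SLC38A1, a sodium-coupled glutamine carrier, went from 42.6 to 29.2 RF RPKM in passage 3 and from 71.2 to 40.2 in passage 4, a log2 change of -0.54 ± 0.12 (adjusted p = 5.0e-05) against an mRNA change of 0.36. Its TE (the ratio of RFs to mRNA) was lower by the interaction test with the block, at -0.77 on the log2 scale (adjusted p = 0.0065).

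The remaining 4 with fewer RFs had 1.46 (SLC6A9) to 10.1 (SLC36A4) RF RPKM with DMSO in passage 3. SLC38A9, the lysosomal arginine sensor of mTORC1, changed by -1.0 ± 0.24, from 278 and 121 RF reads with DMSO to 66 and 21 with Silvestrol in passages 3 and 4. SLC38A7 changed by -0.89, SLC36A4 by -0.92 and SLC6A9, a glycine carrier, by -0.79. SLC36A4 was the lowest in TE among the amino acid carriers, at -1.33 (adjusted p = 0.0031).

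SLC38A2 (SNAT2), which is induced when amino acids run short, was 1 of 2 amino acid carriers with more RFs. It had 66.4 RF RPKM with DMSO and 79.0 with Silvestrol in passage 3, against 87.4 and 90.6 in passage 4, a log2 change of 0.29 ± 0.11 (adjusted p = 0.0145). Its mRNA stood at 45.7 RPKM with DMSO and 66.5 with Silvestrol in the single pair of libraries, and its TE was not called. SLC7A5 (LAT1) had 58.8 RF RPKM with DMSO and 72.8 with Silvestrol in passage 3, but 161 and 160 RPKM in passage 4. Its blocked change was 0.27 ± 0.10 (adjusted p = 0.0156), and at 1 h Silvestrol was lower (56.1 against 66.0 RPKM). SLC7A5 has related pseudogene copies, and reads that mapped to more than 1 place were not counted, so its values are uncertain. Its partner SLC3A2 (4F2hc) was close to level, at 118 and 116 RF RPKM in passage 3 and 180 and 154 in passage 4, with a change of 0.01 ± 0.09. SLC7A1, the arginine carrier, and SLC7A6 had changes of -0.11 ± 0.12 and -0.30 ± 0.20 and did not pass.

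Of 7 sugar carriers, 2 (28.6%) had fewer RFs with the block, as did 28.1% of all genes, and 0 had more, against 25.0%. SLC2A1 (GLUT1, chr1:43391024-43424539 in hg19, minus strand) had the highest RF level of the 118 in DMSO of passage 3. Its RF level went from 147 RPKM with DMSO to 90.0 with Silvestrol in passage 3, from 262 to 146 in passage 4 and from 175 to 113 at 1 h. In each culture and time Silvestrol was lower, although 146 RPKM in passage 4 lay just below the DMSO level of passage 3. The log2 change was -0.63 ± 0.10 (SE, adjusted p = 3.3e-10). The mRNA level was lower as well, at 253 RPKM with DMSO and 174 with Silvestrol (-0.54), and its TE changed by 0.01 in the blocked fit, with a z-score of 0.15. SLC45A3 went from 104 and 29 RF reads with DMSO to 19 and 2 with Silvestrol (-1.52 ± 0.43, adjusted p = 0.0014). SLC2A3 (GLUT3), whose sequence is nearly shared with SLC2A14, had 8 to 50 reads per library and a change of -0.09 ± 0.43. SLC2A6 and SLC2A8, the 2 highest of the class, had changes of 0.22 and 0.32 and did not pass.

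Of 18 ion carriers, 5 had fewer RFs with the block and 5 had more (27.8% each), near the 28.1% and 25.0% of all genes. In the SLC4 family of bicarbonate carriers SLC4A2 fell while SLC4A7 (NBCn1, a sodium bicarbonate importer) and SLC4A11 rose. SLC4A7 had 6.47 RF RPKM with DMSO and 8.65 with Silvestrol in passage 3, against 5.12 and 8.28 in passage 4, without overlap. Its log2 change was 0.65 ± 0.15 (adjusted p = 9.2e-05), with an mRNA change of 0.79 and a TE change of 0.00. SLC4A11 changed by 0.68 ± 0.24. The phosphate carriers SLC20A1 and SLC20A2 were called in opposite directions: SLC20A1 had 27.4 and 39.0 RF RPKM in passage 3 and 63.0 and 64.9 in passage 4 (0.42 ± 0.11), and SLC20A2 had 3.06 and 1.35, and 5.51 and 2.63 (-1.01 ± 0.27). The direction for SLC20A1 rested on single libraries: its Silvestrol and DMSO levels in passage 4 were nearly equal, and without the block its change was -0.13 without the passage 3 DMSO library and -0.04 without the passage 4 Silvestrol library. SLC24A6, an older symbol of the mitochondrial sodium calcium exchanger SLC8B1, changed by -1.35 ± 0.23 and was lower at 1 h (9.29 and 3.77 RPKM).

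The SLC12 family couples chloride to sodium or potassium. SLC12A2 (NKCC1), which brings sodium, potassium and chloride in, had 3.95 RF RPKM with DMSO and 2.82 with Silvestrol in passage 3, against 7.94 and 5.01 in passage 4 (-0.44 ± 0.18, adjusted p = 0.0298). In the fit without the block, leaving out 1 DMSO library gave SLC12A2 a change of -0.93 (passage 3) or -0.0 (passage 4). SLC12A7 (KCC4) and SLC12A4 (KCC1), which let potassium and chloride out, went the other way. SLC12A7 had 2.96 and 4.64 RPKM in passage 3 and 6.15 and 7.65 in passage 4 (0.64 ± 0.18, adjusted p = 0.0012), and SLC12A4 changed by 0.49 ± 0.17. SLC12A8 and SLC12A9 did not pass. WNK1 is a kinase that activates the kinases OXSR1 and STK39, and these phosphorylate SLC12 carriers, which activates NKCC1 and inhibits the KCCs. All 3 kinases had fewer RFs with the block, where 28.1% of all genes did. They were picked from the 36 pumps, partners and regulators, of which 11 (30.6%) had fewer RFs and 7 (19.4%) had more. WNK1 went from 24.6 to 7.07 RF RPKM in passage 3 and from 21.2 to 6.66 in passage 4, and passed the test without the block (-1.61 ± 0.16, adjusted p = 0.0169), as did OXSR1 (-1.03 ± 0.13, adjusted p = 0.0200). STK39 changed by -0.51 ± 0.13 with the block.

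Of 21 metal carriers, 9 (42.9%) had fewer RFs with the block, against 28.1% of all genes, and 2 (9.52%) had more, against 25.0%. Among the 10 ZIP proteins 2 had more RFs and 6 had fewer, and so small a family was not tested against other genes. Those with fewer were SLC39A1, SLC39A3, SLC39A4, SLC39A6, SLC39A9 and SLC39A11, with log2 changes from -1.11 to -0.56. SLC39A1, the most abundant of these 6, had 58.6 RF RPKM with DMSO and 31.7 with Silvestrol in passage 3, against 78.3 and 36.3 in passage 4, without overlap. Its log2 change was -0.81 ± 0.14, and its mRNA moved by nearly as much (-0.83). SLC39A6 (LIV-1) changed by -0.58 ± 0.17 (adjusted p = 0.0022) with an mRNA change of 0.09, and SLC39A10 by -0.15 ± 0.12, which did not pass.

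SLC39A13 and SLC39A14 had more RFs. SLC39A13, a zinc carrier of intracellular vesicles and the Golgi, had 29.996 RF RPKM with DMSO and 49.6 with Silvestrol in passage 3, against 40.6 and 67.3 in passage 4. Both Silvestrol libraries exceeded both DMSO libraries, and the log2 change was 0.86 ± 0.13 (adjusted p = 4.9e-10), the highest of the classes named by substrate. Its mRNA was lower with Silvestrol, at 92.6 and 65.9 RPKM, and its TE rose by 1.47 (adjusted p = 6.0e-05). SLC39A14, which also carries iron and manganese, changed by 0.35 ± 0.13.

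Of the 6 zinc exporters of the SLC30 family 1 had fewer RFs, SLC30A5 (-0.65 ± 0.21), and 0 had more, against 28.1% and 25.0% of all genes. SLC30A1, the exporter of the plasma membrane, had a change of 0.18 ± 0.21. SLC31A1 (CTR1), the copper importer, had 17.5 RF RPKM with DMSO and 7.64 with Silvestrol in passage 3, against 40.6 and 11.5 in passage 4 (-0.90 ± 0.26, adjusted p = 0.0013). Its counted length was 1.34 times as long in the Silvestrol as in the DMSO library of passage 3, relative to other genes, which lowers its RPKM there. The counts themselves were 184 and 53 in passage 3, and 128 and 20 in passage 4. In passage 4, with 6400198 and 2634213 counted reads, its RPKM likewise fell by more than its counts. No other solute carrier tested departed as far from the length ratio of other genes in passage 3. Its relative SLC31A2 had a change of 0.05 ± 0.19.

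Of 51 tested carriers of other substrates, 15 (29.4%) had fewer RFs with the block and 11 (21.6%) had more, near the 28.1% and 25.0% of all genes. Among the 17 SLC35 carriers tested, most of which bring nucleotide sugars into the Golgi, SLC35B3, SLC35C2, SLC35A3 and SLC35A5 had fewer RFs and SLC35A2, SLC35B2, SLC35E1 and SLC35E3 had more, 23.5% each way. SLC35E4 did not pass the filter on low levels and was not tested, and its log2 RF change was -1.75 in passage 3 and -1.93 in passage 4. SLC35B2 and SLC35B3 both carry the sulfate donor PAPS. SLC35B3 went from 8.35 to 3.40 RF RPKM in passage 3 and from 16.9 to 5.28 in passage 4 (-1.30 ± 0.23), with 12.1 and 19.7 RPKM of mRNA. SLC35B2 went from 32.8 to 42.3 and from 65.1 to 74.5 RF RPKM (0.41 ± 0.12), with 168 and 85.9 RPKM of mRNA. SLC35A2, the UDP-galactose carrier, went from 13.6 to 22.4 and from 25.4 to 38.4 RF RPKM (0.79 ± 0.15, adjusted p = 8.5e-07).

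Of the 4 SLC37 sugar phosphate carriers, SLC37A1, SLC37A3 and SLC37A4 had fewer RFs (-1.22, -0.70 and -1.05) and SLC37A2 had more (0.39), where 28.1% and 25.0% of all genes were called. SLC37A4 brings glucose 6-phosphate into the endoplasmic reticulum. SLC37A1 rested on 82 and 30 reads with DMSO and 20 and 2 with Silvestrol. The vitamin carriers SLC23A2 (vitamin C), SLC5A6 (biotin and pantothenate) and SLC19A2 (thiamine) had fewer RFs, with changes from -0.72 to -0.57, whereas SLC46A1, the proton-coupled folate carrier, had more (0.57 ± 0.25, adjusted p = 0.0473).

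Among nucleoside carriers SLC29A1 (ENT1) went from 62.6 to 46.0 RF RPKM in passage 3 and from 118 to 76.4 in passage 4 (-0.40 ± 0.11), with mRNA at 162 and 92.7 RPKM. SLC29A3, its lysosomal relative, rose by 0.80 ± 0.32 on 14 to 85 reads per library, and SLC29A2 had -0.07 ± 0.21. SLC16A3, with the highest mRNA level of the 118, had 142 and 125 RF RPKM in passage 3 and 291 and 218 in passage 4 (-0.16 ± 0.09) and did not pass, while its mRNA was 574 and 351 RPKM. SLC6A6, the taurine carrier, fell by 0.47 ± 0.17 on the log2 scale.

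At 1 h, in a single pair of libraries, 9 of 118 solute carriers were at least 2-fold lower with Silvestrol (7.98% of all genes were) and 0 were at least 2-fold higher (0.343% of all genes). By RPKM SLC41A1 was again the lowest (-1.98), followed by SLC15A3 (-1.46), SLC31A1 (-1.33) and SLC24A6 (-1.30). SLC31A1 had 204 reads with DMSO and 84 with Silvestrol, in libraries of 30903535 and 20438921 counted reads. That is a smaller fall than its RPKM shows, so its place among the 9 and in this order rests on RPKM. The 1 h libraries were not used for the calls at 2 h. Of the 37 solute carriers with fewer RFs at 2 h, 33 lay below the median of all genes at 1 h, and of the 20 with more RFs, 18 lay above it. Over all genes called in the same way, 94.2% of those with fewer RFs at 2 h lay below the median at 1 h, and 7.24% of those with more. Across the 116 genes, Spearman's rho between the changes at 1 h and 2 h was 0.766, and 0.769 over 10494 genes. These genes share libraries and are not replicates.

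Of mRNA levels, 2 of 118 were at least 2-fold lower (1.78% of all genes) and 0 at least 2-fold higher (4.71%). Those 2 were SLC9A7 (13.9 and 6.62 RPKM) and SLC29A3 (6.15 and 3.01 RPKM). The median log2 mRNA change was -0.08 over the 116 tested, against 0.04 over all genes, with 0.06 for amino acid, -0.37 for sugar, 0.01 for ion and -0.03 for metal carriers. For 5 of the 7 sugar carriers, SLC2A1, SLC2A3, SLC2A6, SLC2A8 and SLC45A3, the mRNA change lay between -0.70 and -0.27. There is 1 mRNA library per treatment, so these values have no replicate check.

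For TE, a single edgeR model held the 4 RF and 2 mRNA libraries at 2 h. Without the block 0 of 116 solute carriers passed in either direction, against 0.0190% and 0.00% of all genes, and 3 were lower and 3 higher at an unadjusted p under 0.05 (2.59% each), against 14.4% and 10.5%. DESeq2 called 1 lower, SLC41A1, and 1 higher, SLC39A13, against 5.13% and 3.80% of all genes. With the passage as a block 15 had lower TE (12.9%), against 22.5% of all genes, and 19 had higher TE (16.4%), against 22.7%. The spread between cultures comes from RFs alone in this model. By z-score of the log2 TE change in passage 3, 2 of 116 lay below -1.5 (6.75% of all genes) and 8 above 1.5 (4.85%).

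SLC41A1 (-2.15) and SLC35B3 (-1.73) were the ones below -1.5, followed by SLC15A3 at -1.18. Above 1.5 were SLC29A3 (2.21), SLC46A1 (1.83), SLC35A2 (1.79), SLC12A7 (1.71), SLC9A7 (1.71), SLC35B2 (1.69), SLC22A18 (1.68) and SLC39A13 (1.57). For all 8 the mRNA change lay below the median of all genes, and for SLC9A7 the RFs themselves passed no test (0.17 ± 0.21). SLC22A18 is the gene nearest to the RF threshold of 1 RPKM, with 48 RF reads in DMSO of passage 3. With the RFs of passage 4 in place of passage 3, 7 lay below -1.5 and 4 above 1.5, against 6.78% and 4.82% of all genes.

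The 5′ UTRs of the solute carriers were longer than most. Their median length was 209 nt, against 132 nt over all genes kept, from GENCODE transcripts on GRCh37. The genes with fewer RFs had a median of 248 nt and a GC content of 63.6%, those with more RFs 84.5 nt and 76.2%, and the uncalled ones 179 nt and 70.4%. Over all genes the same medians were 250 nt and 66.8% for fewer RFs and 61.0 nt and 67.9% for more RFs. SLC41A1 has 1037 nt and SLC24A6 749 nt, whereas SLC35A2 has 10 nt, SLC29A3 51 nt and SLC39A13 81 nt. Of 35 solute carriers with up to 100 nt, 4 (11.4%) had fewer RFs and 12 (34.3%) had more, against 7.21% and 46.3% of all genes of that length. Of 20 with over 400 nt, 12 (60.0%) had fewer and 1, SLC20A1, had more, against 68.8% and 3.26%. No length class was tested against all genes. Over all genes the median was 0.32 up to 100 nt and -0.80 over 400 nt, compared with 0.20 and -0.61 for solute carriers, whose changes were thus the smaller at both ends. Across the 116 genes Spearman's rho between length and log2 RF change was -0.551, and -0.601 over 10331 genes, as a description of points that share libraries.

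**Figure D4:**
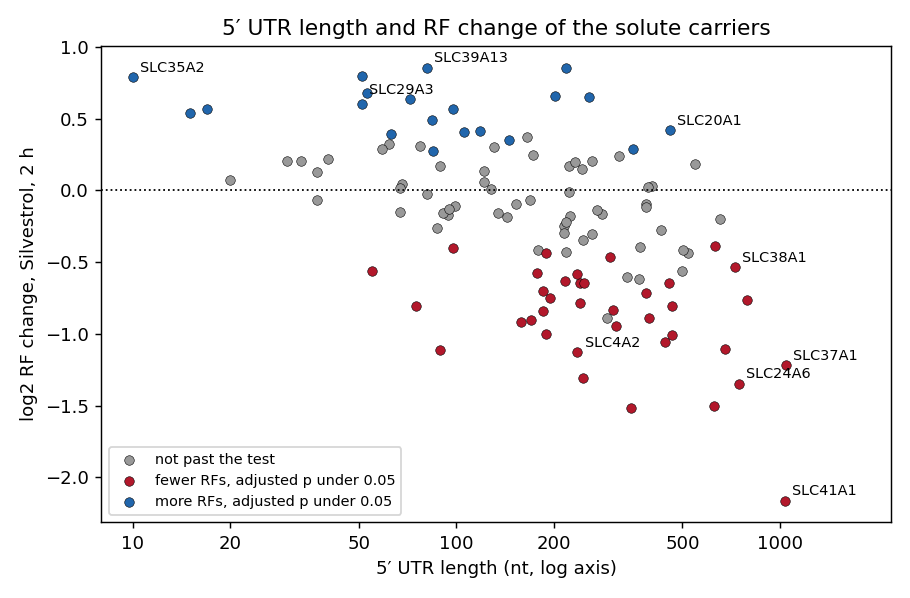
5′ UTR length (x axis, nt, log scale) and log2 RF change with Silvestrol at 2 h with the passage as a block (y axis) of 116 solute carriers. Red points with fewer RFs have a median of 248 nt and blue points with more RFs one of 84.5 nt, and the ranges overlap.

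A run of 4 CGG triplets, proposed to fold into a G-quadruplex, was searched on the transcript strand of the 5′ UTR. It was present in 3 of 116 solute carriers tested (2.59%), against 4.65% of all genes, 9.16% of all genes with fewer RFs and 1.15% of those with more. None of the 3 had fewer RFs. Of those shown here, SLC4A7 rose, as given above, and SLC7A6 did not pass. The stretches around the motif in SLC4A7 and SLC7A6 are shown 5′ to 3′ because few solute carriers have it, with the motif in capitals. They lie at chr3:27525683-27525712 (minus strand) and chr16:68298429-68298450 (plus strand) on GRCh37.
SLC4A7: ccgggggctCGGCGGCGGCGGcaggggcag
SLC7A6: gCGGCGGCGGCGGcgcgaccga

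With INK128 the RFs of solute carriers stayed close to DMSO. The log2 RF change was 0.5 or more for 2 of 118, SLC38A2 and SLC2A3, against 5.88% of all genes in that table, and -0.5 or less for 0, against 4.94%. SLC38A2 had 34.96 RF FPKM with DMSO and 57.3 with INK128 (0.71), and SLC2A3 had 6.04 and 8.59 (0.51). The median change was 0.06 over 118 solute carriers and 0.02 over all genes, with 0.11 for amino acid, 0.17 for sugar, 0.10 for ion and 0.02 for metal carriers. SLC41A1 had -0.19 and SLC4A2 0.10. Total RNA FPKM was lower with INK128 for genes in general, with a median log2 change of -1.17 over genes kept, so TE changes are read relative to their median. The z-score of the TE change was below -1.5 for 0 of 63 solute carriers kept and above 1.5 for 0. Over all genes kept in that table the shares were 5.58% and 1.75%, and over the 5816 genes also kept in the Silvestrol table, as the 63 are, 2.32% and 1.08%. At the ends of the range were SLC35D2 (-0.95), SLC27A1 (-0.93) and SLC39A3 (-0.80), and SLC37A3 (1.18), SLC35A2 (1.15) and SLC35F2 (0.97). With 1 library per group no test was possible.

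**Figure D5:**
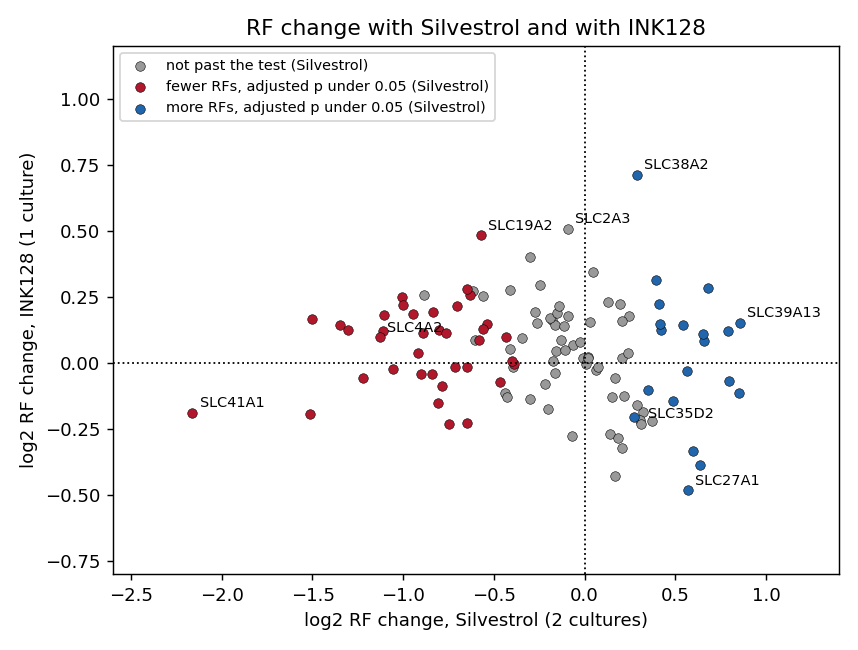
log2 RF change with Silvestrol (x axis, 2 cultures, passage as a block) and with INK128 (y axis, 1 culture) of 116 solute carriers, coloured by the Silvestrol call. The INK128 values lie between -0.48 and 0.71 while the Silvestrol values reach -2.16.

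Starts rich in pyrimidines were looked for in RefSeq transcript starts (GRCh38.p14), as a C at the first base followed by at least 4 C or T. Of 92 tested solute carriers with a start listed there, 5 had one (5.43%), against 5.37% of all genes. The first 20 bases are given 5′ to 3′, with the pyrimidine run in capitals. They are shown because SLC35D2 and SLC27A1 had the 2 lowest TE z-scores with INK128 among the solute carriers kept in that experiment.
SLC27A1: CTCTCTgcttccccaggatg
SLC29A1: CTCTCTTCCgcccggcggcc
SLC35D2: CTCTTCCCCggcccggccgg
SLC41A3: CTCTTTCCCgccgccgcctg
SLC4A2: CTTTTatgtgctcccagccc
They lie at chr19:17470524-17470543 (plus strand), chr6:44219615-44219634 (plus strand), chr9:96383692-96383711 (minus strand), chr3:126084105-126084124 (minus strand) and chr7:151058200-151058219 (plus strand). The log2 RF changes with INK128 of the 5 were -0.48, 0.01, -0.23, -0.16 and 0.10. Over 301 genes of both tables with such a start the median was -0.13, and over 4561 genes with another start it was 0.02. SLC27A1, a fatty acid carrier of the plasma membrane, had 3.95 RF FPKM with DMSO and 2.83 with INK128. It had more RFs with Silvestrol (0.57 ± 0.19, adjusted p = 0.0067).

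The genes that work with solute carriers were taken from a list of pumps, partners and regulators, of which 36 were tested. Without the block 2 had fewer RFs, WNK1 and OXSR1, and 1 had more, SGK1, a kinase that keeps sodium and amino acid carriers at the cell surface. SGK1 had 27.0 RF RPKM with DMSO and 44.1 with Silvestrol in passage 3, against 31.9 and 61.7 in passage 4 (0.96 ± 0.19, adjusted p = 0.0407). These are 5.56% and 2.78% of the list, against 7.76% and 2.23% of all genes. With the block 11 had fewer (30.6%) and 7 had more (19.4%), against 28.1% and 25.0% of all genes, so the shares lay near the background. ATP1B1, a subunit of the sodium pump whose gradient drives many solute carriers, changed by -0.52 ± 0.14 (adjusted p = 0.00057). BSG, the chaperone of SLC16 carriers, had 0.21 ± 0.09, and ATP7A, a copper pump, -0.47 ± 0.21 (adjusted p = 0.0455).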

How the data were processed

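The authors aligned RF and mRNA reads with Bowtie (CASAVA 1.8.1 and Bowtie2 are named in the submitters' processing notes) to hg19 and UCSC canonical transcripts. Per transcript, the authors deposited read counts from unique alignments, and RPKM values that leave out positions with ambiguous reads. For INK128 the authors deposited FPKM values without counts, and the program that made them is not given in the sources used here. Deposited columns of the authors' own TE, its log2 change and scores were not used. All per-sample columns were used (0 left out).

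Of 38897 lines 25758 were distinct, and of 546 symbols with several entries the one highest in mean RF RPKM was kept (0 solute carriers were affected). Genes needed values above 0 at 2 h in passage 3, a mean RF RPKM of 1 and a mean mRNA RPKM of 0.3, each over DMSO and Silvestrol. This left 116 solute carriers of 10505 genes. The 2 left out had low RFs with Silvestrol, with log2 changes in passages 3 and 4 of -1.75 and -1.93 for SLC35E4 and -1.27 and -0.27 for SLC22A3, so the tested ones omit reduced genes. For INK128 the same limits were applied to FPKM. The test of RF counts used TMM, glmQLFit and glmQLFTest (edgeR 4.0.16, R 4.3.3), and TE was the interaction between RF or mRNA and the drug over 6 libraries, with Benjamini-Hochberg adjusted p under 0.05. SEs are the log2 change over the square root of F. DESeq2 1.42.0 was an alternative. TE z-scores (threshold 1.5) came from RPKM of passage 3 or FPKM, without a pseudocount. Python 3.11.15, pandas 2.3.3 and matplotlib 3.10.9 were used.

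Passages 3 and 4 are given by the labels for both treatments, and their differences correlated between DMSO and Silvestrol (r = 0.702 over 10505 genes), so they pair the libraries. The labels say no more of how the cultures differed. Without the block, p-values measure the spread between 2 cultures. With it, the difference between the cultures is removed, and p-values measure how far the drug effect differed between the 2. That leaves little information per gene, and the variance estimate borrows from other genes, so small blocked p-values rest on 2 cultures only.

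5′ UTRs came from GENCODE 44 on GRCh37, MANE Select where present, and matched all 118 solute carriers and 10331 of the 10505 genes kept.

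The solute carriers, the class lists and the lists of intracellular carriers, pumps, partners and regulators were chosen with earlier results of these data known. The text names solute carriers past the RF test, a list of well-known ones where expressed, the 2 lowest and 2 highest RF changes per class, the 3 lowest and highest TE z-scores with each drug and those nearest the threshold. Any other gene was picked for mention with its values in view. Alternatives covered the block, DESeq2, its size factors, low-value filters, the counted length, pseudocounts, median and MAD, and leaving out each library. Results of some genes are not reported here.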

Additional observations from a re-analysis of the deposited data

Results flagged for a closer look

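The log2 RF change of SLC4A11 had opposite signs at the times of treatment, but at 1 h it lay close to the median of all genes. Its change with Silvestrol was -0.17 at 1 h, and at 2 h it was 0.45 in passage 3 and 0.74 in passage 4. The medians of all genes were -0.18, -0.17 and -0.15, so that relative to other genes SLC4A11 did not fall at 1 h. The difference between the times was not tested, since 1 h has 1 library per treatment.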

How the results depend on the processing

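The counts of calls depended on the term for the culture, and the medians of the classes on single libraries. Solute carriers with fewer RFs numbered 37 with the passage as a replicate block, 7 with DESeq2, 6 with no minimum RPKM and 4 with an offset for counted length, against 2. Those with more RFs numbered 20, 1, 1 and 0, against 0. Among the 88 with at least 20 reads in each library, a setting chosen after seeing the data, the blocked counts were 28 and 18, against 28.4% and 29.5% of all genes with as many reads. Leaving out 1 library gave 0 to 11 with fewer RFs (11 without the passage 3 DMSO library, 0 without either Silvestrol library) and 0 to 1 with more.

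Lower and higher TE was called for 15 and 19 with the block and 1 and 1 with DESeq2, and for 0 to 5 and 0 to 1 with 1 library left out, the highest without the passage 3 DMSO library. With no minimum RPKM 5 z-scores lay above 1.5, and with RFs of passage 4 the counts were 7 below and 4 above. For INK128 the counts below and above were 1 and 0 with a pseudocount of 0.5, 1 and 2 with no minimum FPKM, and 3 and 2 with median and MAD.

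With 1 library left out the median log2 RF change ranged from -0.624 to 0.150 for all solute carriers, -0.643 to 0.011 for amino acid, -0.990 to 0.331 for sugar, -0.665 to 0.205 for ion and -0.598 to -0.002 for metal carriers. Each was highest without the passage 4 DMSO library and lowest without the passage 3 DMSO library. Under the block, other size factors or the length offset each median stayed within the spread of the cultures. The median of all solute carriers at 1 h (-0.200) was -0.176 with a pseudocount of 0.5 and -0.148 with a minimum of 5 RPKM, and that of mRNA (-0.079) was -0.068 under either. For 31 named genes the log2 RF change was refitted with 1 library left out, and its sign turned, none of these being called without the block, for SLC7A5 (-0.535 to 1.127), SLC20A1 (-0.134 to 0.990), SLC39A14 (-0.019 to 0.684), SLC46A1 (-0.007 to 0.974), SLC29A1 (-0.812 to 0.028) and SLC6A6 (-1.070 to 0.059). Within these ranges SLC7A5 also stood at -0.378 and SLC20A1 at -0.040. The other genes named were not refitted in this way. The block ended no call made without it.

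Depth limits the shallowest library most, where the median solute carrier had 38.0 reads. mRNA, 1 h and INK128 values have 1 library per group.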
